A study of Cephalotaxus fortunei with 9 samples.

Results

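Root-enriched transcripts that also gave reads in the shoot were examined in Cephalotaxus fortunei, an East Asian conifer (plum yew) whose tissues contain cephalotaxine-type and homoerythrina alkaloids. Of 37051 transcripts in the tables, 73 met the limits. Each had at least 100 TPM (Salmon's TPM unit, a relative abundance scaled by transcript length) in all 3 root libraries. Each also had a mean of at least 0.5 TPM in leaf and in stem, and a root mean at least 10 times both of these means. The root mean is the mean of 2 values, the average of root replicates 1 and 2 and root replicate 3. The transcripts were thus selected on their measured TPM in root, leaf and stem, and the excess of root over leaf and over stem is given as values without a test. The groups were root, leaf and stem, with 3 libraries each from poly(A)-enriched, strand-specific RNA sequencing. The labels give tissue and replicate number, and no treatment, cultivar, plant age or pooling of plants. The study addressed the enzymes that form the alkaloids and used the expression pattern across the organs to choose candidate sequences.

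In seed plants, roots take up water and mineral nutrients, anchor the plant, and exchange compounds with soil microbes, while leaves fix carbon and stems carry water and sugars between the organs. Transcripts abundant in roots and scarce in the shoot commonly code for transporters, cell wall and defence proteins, and enzymes of specialised metabolism. In many medicinal plants the organ that makes an alkaloid is not the organ that stores it, so a root-enriched profile with a remaining shoot level is one that candidate searches consider. The transcripts here carry running numbers without gene names or sequences, so each is given by its number, its length and its levels, and no function is assigned. No marker of an organ or cell type could be looked up to check the tissue labels.

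Library totals were 7117807 to 8093638 estimated reads in root, 12809484 to 14606814 in leaf and 18417327 to 19652495 in stem. The counts of root replicates 1 and 2 differed by less than sampling noise (chi-square per degree of freedom 0.527, against 14.6 to 29.4 for every other pair within a tissue). This pair therefore entered as 1 sample, and root had 2 samples. The labels do not state whether replicates are separate plants, and a p-value here covers no more than the spread among these libraries, part of which may be technical. In bulk tissue, fewer cells of a type and less RNA per cell cannot be told apart.

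The 73 transcripts formed a block of high values in root over a low and uneven shoot level. They held 5.68%, 5.68% and 4.74% of all TPM in root replicates 1, 2 and 3, against 0.104%, 0.120% and 0.123% in leaf and 0.0828%, 0.0801% and 0.0841% in stem. By estimated reads, which do not use the transcript length, they held 2.76% ± 0.261 of reads in root (SD over 2 samples), against 0.0614% ± 0.00367 in leaf and 0.0511% ± 0.00300 in stem (SD over 3 libraries each). Root means ran from 120.4 to 7971 TPM with a median of 345 TPM. Of the 73, 14 averaged 1000 TPM or more in root, 39 lay between 200 and 1000 TPM, and 20 lay below 200 TPM. Leaf means ran from 0.509 to 385 TPM with a median of 5.50 TPM, and stem means from 0.559 to 89.9 TPM with a median of 5.84 TPM. The median ratio of the root mean to the higher of both shoot means was 33.4.

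**Figure D1:**
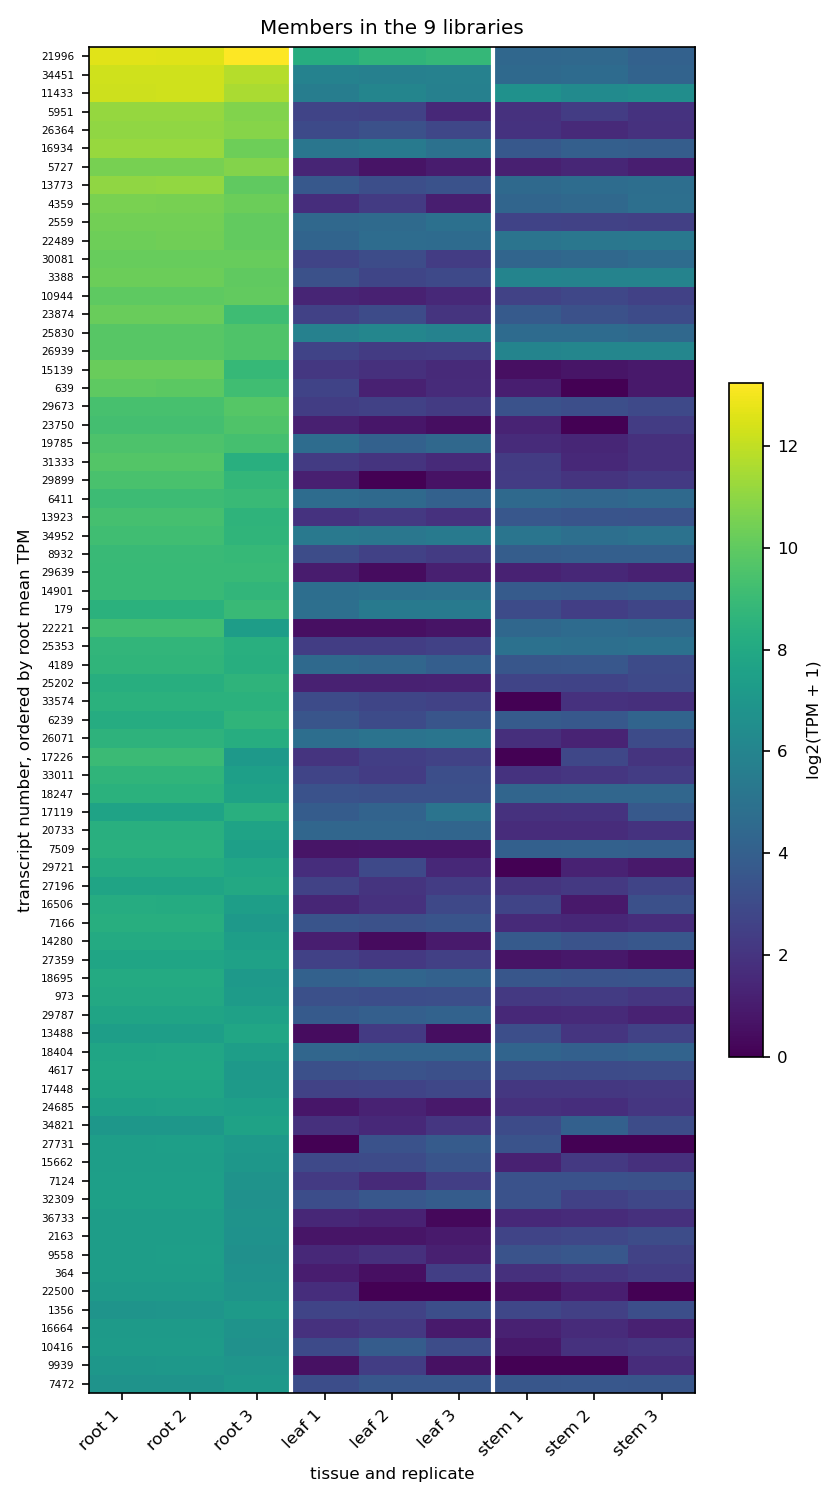
Level of each of the 73 transcripts (rows, ordered by root mean TPM) in the 9 libraries (columns: root, leaf, stem, 3 replicates each), as log2(TPM + 1). Root values run from at least 100 TPM upwards by the choice of transcripts, while the shoot values differ from row to row between leaf and stem, and dark cells mark libraries in which a transcript was at or near 0.

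The highest root mean in TPM belonged to transcripts_21996 (288 bases). It had 6343, 6249 and 9647 TPM in root replicates 1, 2 and 3, 304, 406 and 445 TPM in leaf and 20.4, 21.4 and 16.3 TPM in stem. Replicate 3 was the highest root library, and the leaf and stem libraries did not overlap. This transcript alone made up 11.2%, 11.0% and 20.4% of the summed TPM of the 73 in the root libraries, 29.3%, 33.7% and 36.1% in leaf, and 2.46%, 2.67% and 1.94% in stem. Without it, the summed TPM was 44119 ± 9069.7 in root (SD over 2 samples). That sum was 772 ± 32.8 in leaf and 804 ± 22.9 in stem (SD over 3 libraries each). In TPM, the order of leaf over stem in the sum thus rested on 1 transcript. The order in reads without it was not examined.

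The next in root was transcripts_34451 (864 bases), with 5028, 5055 and 3413 TPM in root, 56.4, 52.98 and 55.2 TPM in leaf and 21.9, 23.3 and 17.4 TPM in stem. transcripts_11433 (380 bases) had 4871, 4916 and 3047 TPM in root, 48.3, 64.2 and 53.5 TPM in leaf and 101, 79.4 and 88.9 TPM in stem. In both, root replicate 3 was the lowest root library, and leaf was above stem for the first and below stem for the second in every library. transcripts_16934 (379 bases) stood at 2302, 2333 and 1295 TPM in root, 36.3, 41.7 and 29.4 TPM in leaf and 11.7, 15.2 and 14.1 TPM in stem. transcripts_13773 (450 bases) stood at 2137, 2156 and 1027 TPM in root, 11.7, 7.99 and 9.12 TPM in leaf and 21.6, 24.5 and 26.6 TPM in stem. These 2 repeat the contrast at a lower level, the first with more in leaf and the second with more in stem. The 8 with the highest root mean TPM together held 46.6% to 50.1% of the members' TPM in root libraries, 45.3% to 48.8% in leaf and 20.2% to 22.2% in stem.

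The other 3 of the 8 were almost restricted to root. transcripts_5951 (475 bases) had 2296, 2280.1 and 1709 TPM in root, 5.65, 5.10 and 1.91 TPM in leaf and 2.73, 4.04 and 2.85 TPM in stem. transcripts_26364 (206 bases) had 2083, 2067 and 1836 TPM in root, 6.81, 8.70 and 5.98 TPM in leaf and 2.78, 2.01 and 2.67 TPM in stem. transcripts_5727 (479 bases) had 1448, 1452 and 1742 TPM in root, 1.63, 0.624 and 0.995 TPM in leaf and 1.23, 1.70 and 1.16 TPM in stem. Its root mean was 1170.0 times the higher shoot mean, the largest ratio among the 73, and its shoot level came from 15, 5 and 7.999 reads in the leaf libraries and 14, 18.96 and 14 reads in the stem libraries. The next ratios were 473 for transcripts_5951, 374 for transcripts_23750 and 322 for transcripts_29639. transcripts_23750 (335 bases) had 625, 623 and 777 TPM in root, 1.26, 0.751 and 0.410 TPM in leaf and 1.51, 0 and 4.10 TPM in stem, with 0 reads in stem replicate 2. transcripts_29639 (2031 bases) had 481, 482 and 484 TPM in root, 1.01, 0.340 and 1.22 TPM in leaf and 1.41, 1.81 and 1.29 TPM in stem, and its root libraries were nearly equal. In all, 11 of the 73 had a ratio of at least 100, 49 of at least 20, and 24 lay below 20.

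The limits cut through a continuous range of values. The transcript nearest inside the root limit, transcripts_9558, had 100.1 TPM in its lowest root library, and transcripts_33260, nearest outside, had 96.5 TPM. For the shoot limit, transcripts_22221 was inside with a leaf mean of 0.509 TPM and transcripts_16043 outside with 0.499 TPM. For the ratio, transcripts_18404 was inside at 10.5 and transcripts_18394 outside at 9.98.

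The shoot signal was present in most libraries but often rested on few reads. Reads were found in all 6 shoot libraries for 64 of the 73 transcripts, and 9 had 0 reads in at least 1 of them. A level of 1 TPM or more was reached in every shoot library by 49, and at least 10 reads in every shoot library by 41. In leaf libraries 60 to 66 of the 73 reached 1 TPM, and in stem libraries 65 to 67. Only 11 had a mean of at least 10 TPM in both leaf and stem, and 35 reached it in at least 1 of these tissues. The highest average over both shoot tissues after transcripts_21996, transcripts_11433 and transcripts_34451 belonged to transcripts_25830 (470 bases), which had 899, 898 and 775 TPM in root, 54.5, 66.3 and 58.04 TPM in leaf and 23.8, 23.4 and 20.9 TPM in stem. The label of transcripts also present in the shoot thus rests on at least 10 estimated reads per library for 41 of the 73. For the others it rests on fewer in at least 1 library. Estimated reads can include reads divided with a similar transcript, so they are not all unique to these transcripts.

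Replicate spread in the shoot was moderate for the typical transcript. The median coefficient of variation was 21.8% among leaf libraries and 16.8% among stem libraries. Over all transcripts with a mean of at least 0.5 TPM in the tissue, the medians were 22.5% for 24227 transcripts in leaf and 19.8% for 21354 in stem. It was above 50% for 16 of the 73 in leaf and 12 in stem, and below 20% for 33 and 42.

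Leaf and stem entered the limits in the same way, in TPM, and the difference between them was not itself used. It was tested with edgeR's quasi-likelihood test over 24564 transcripts, and a transcript was called at an adjusted p under 0.05 with a log2 fold change (leaf minus stem) of at least 1 in size. All 73 passed the filter on low counts, but with leaf and stem libraries alone 61 passed it, so the other 12 entered through their root reads. Of these 12, 0 were called higher in leaf and 1, transcripts_34821, higher in stem. In this comparison 10 of the 73 were higher in leaf (13.7%), against 14.5% of all tested transcripts. Another 27 were higher in stem (37.0%), against 14.4% of all tested transcripts, and 36 were not called. Called in either direction were 37 (50.7%), against 29.0% of all tested transcripts. In a fit of the leaf and stem libraries alone, 11 of the 61 were higher in leaf and 26 in stem, against 20.1% and 17.8% of the 18825 transcripts tested there. Of the 37, 35 had no overlap between the leaf and the stem libraries in TPM, in the direction of the call. The call itself makes such separation likely. Its share among all called transcripts was not counted, so it adds no support. The median log2 fold change was -0.45 over the 73 and 0.02 over all tested transcripts, and the median size was 1.41 over the 73 and 0.89 over all. The median of the members' means was 5.50 TPM in leaf, against 6.45 TPM over all tested transcripts, and 5.84 TPM in stem, against 3.79 TPM.

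How far the calls leaned to stem changed with the scaling between the tissues. TMM scaling, used for the calls above, centres the bulk of transcripts, and on its scale a transcript with about equal TPM in leaf and stem tended to lie below 0. Limits that are equal in TPM therefore bear on the direction, and nothing about the members is read from the excess of calls higher in stem. With library totals alone, 18 members were called higher in leaf and 20 in stem, against 25.7% and 10% of all tested transcripts. That scaling moved the median of the 73 to 0.10 and of all tested transcripts to 0.57. With limma on log2(TPM + 0.1) the medians were 0.045 over the 73 and 0.50 over all tested transcripts. Without scaling beyond TPM itself, 28 members had every leaf library above every stem library, against 43.9% of all tested transcripts, and 26 had every stem library above every leaf library, against 16.9%. Without root replicate 3 in the fit, 10 members were called higher in leaf and 26 in stem, against 14.3% and 14.0% of all tested transcripts.

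**Figure D2:**
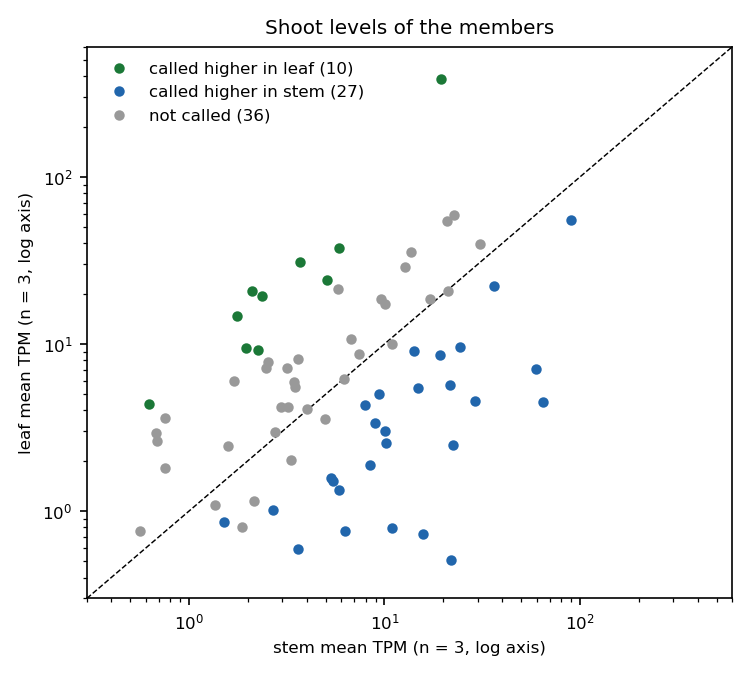
Leaf mean TPM against stem mean TPM of the 73 transcripts (both axes log, n = 3 libraries each), coloured by the edgeR call (10 higher in leaf, 27 higher in stem, 36 not called). Points spread widely on both sides of the line of equal TPM, and transcripts_21996 stands apart at the top.

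Transcripts higher in leaf were led by transcripts_21996, whose values are given above, with a log2 fold change of 3.62 ± 0.24 (SE, adjusted p = 2.81e-05, edgeR). transcripts_19785 (891 bases) had 744, 742 and 654 TPM in root, 24.7, 16.3 and 21.1 TPM in leaf and 2.05, 1.67 and 2.62 TPM in stem, a leaf minus stem change of 2.83 ± 0.19 (SE, adjusted p = 2.69e-05, edgeR). Its leaf values were all above its stem values, and it was even across root libraries. transcripts_26071 (888 bases) had 369, 369 and 299 TPM in root, 26.1, 32.3 and 34.7 TPM in leaf and 2.48, 1.51 and 7.04 TPM in stem. Stem replicate 3 stood above the other stem libraries for it, and the change was 2.62 ± 0.47 (SE, adjusted p = 0.004, edgeR). transcripts_29787 (367 bases) had 212, 215 and 192 TPM in root, 12.5, 14.9 and 16.8 TPM in leaf and 1.85, 1.98 and 1.42 TPM in stem, and changed by 2.51 ± 0.24 (SE, adjusted p = 1.57e-04, edgeR).

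transcripts_20733 (2116 bases) had close values among the leaf libraries, with 321, 321 and 203 TPM in root, 19.8, 19.5 and 19.01 TPM in leaf and 2.15, 2.17 and 2.80 TPM in stem. Its leaf minus stem change was 2.47 ± 0.17 (SE, adjusted p = 2.45e-05, edgeR). transcripts_27359 (409 bases) was the lowest in stem, with 218, 222 and 189.7 TPM in root, 4.93, 3.51 and 4.65 TPM in leaf and 0.628, 0.785 and 0.454 TPM in stem, a change of 2.23 ± 0.27 (SE, adjusted p = 4.66e-04, edgeR) that rests on 3 to 5 stem reads per library. The other 4 called higher in leaf, transcripts_179, transcripts_7166, transcripts_2559 and transcripts_10416, changed by 1.49 to 2.13, and the call of transcripts_10416 was lost when any leaf library, root replicate 3 or stem replicate 1 or 2 was left out. All 10 had leaf libraries above the stem libraries without overlap, which the call itself makes likely. The median ratio of root to the higher shoot mean was 17.2 for these 10, against 32.8 for those higher in stem and 47.7 for those not called. The limits used this ratio, and a call depends on shoot reads, so nothing is read from this order.

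Transcripts higher in stem reached the larger differences. transcripts_22221 (931 bases) had 585, 586 and 165 TPM in root, 0.433, 0.458 and 0.637 TPM in leaf and 20.4, 23.5 and 21.6 TPM in stem, a log2 fold change of -5.92 ± 0.59 (SE, adjusted p = 2.42e-04, edgeR). Its leaf level came from 4 or 5 reads per library, and root replicate 3 was far below the other root libraries. transcripts_7509 (496 bases) had 342, 338 and 175 TPM in root, 0.695, 0.771 and 0.718 TPM in leaf and 15.9, 16.1 and 15.1 TPM in stem, and changed by -4.86 ± 0.30 (SE, adjusted p = 1.57e-05, edgeR). transcripts_26939 (416 bases) had 895, 891 and 765 TPM in root, 5.29, 3.996 and 4.17 TPM in leaf and 61.6, 66.5 and 65.5 TPM in stem, a change of -4.40 ± 0.14 (SE, adjusted p = 9.51e-07, edgeR). It was backed by 41, 27 and 29 leaf reads and 602, 673 and 679 stem reads, and its libraries were close within each tissue.

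transcripts_14280 (1057 bases) had 273, 274 and 168 TPM in root, 1.14, 0.314 and 0.910 TPM in leaf and 12.4, 9.60 and 10.9 TPM in stem, and changed by -4.27 ± 0.40 (SE, adjusted p = 1.58e-04, edgeR). transcripts_4359 (222 bases) had 1497, 1493 and 1218 TPM in root, 2.37, 3.88 and 1.18 TPM in leaf and 19.03, 21.2 and 27.2 TPM in stem, a change of -3.66 ± 0.34 (SE, adjusted p = 1.29e-04, edgeR) on 1 to 3 leaf reads per library. transcripts_2163 (893 bases) had 164, 164 and 108 TPM in root, 0.657, 0.683 and 0.937 TPM in leaf and 5.55, 5.99 and 7.35 TPM in stem, and changed by -3.65 ± 0.21 (SE, adjusted p = 1.29e-05, edgeR). In each of these 6, every stem library was above every leaf library and every root library was above both. The calls of the remaining 21 ranged in size from 1.15 upwards, and transcripts_23874 and transcripts_13488 were the 2 of 27 whose leaf and stem libraries overlapped, and the calls of both were lost without leaf replicate 1 or 3 or without any 1 stem library. A difference of at least 4-fold was called for 7 members higher in leaf (9.59%), against 7.97% of all tested transcripts, and for 17 higher in stem (23.3%), against 8.63%. These counts are on the TMM scale, where limits equal in TPM bear on the direction. Nothing is read from their excess in stem.

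**Figure D3:**
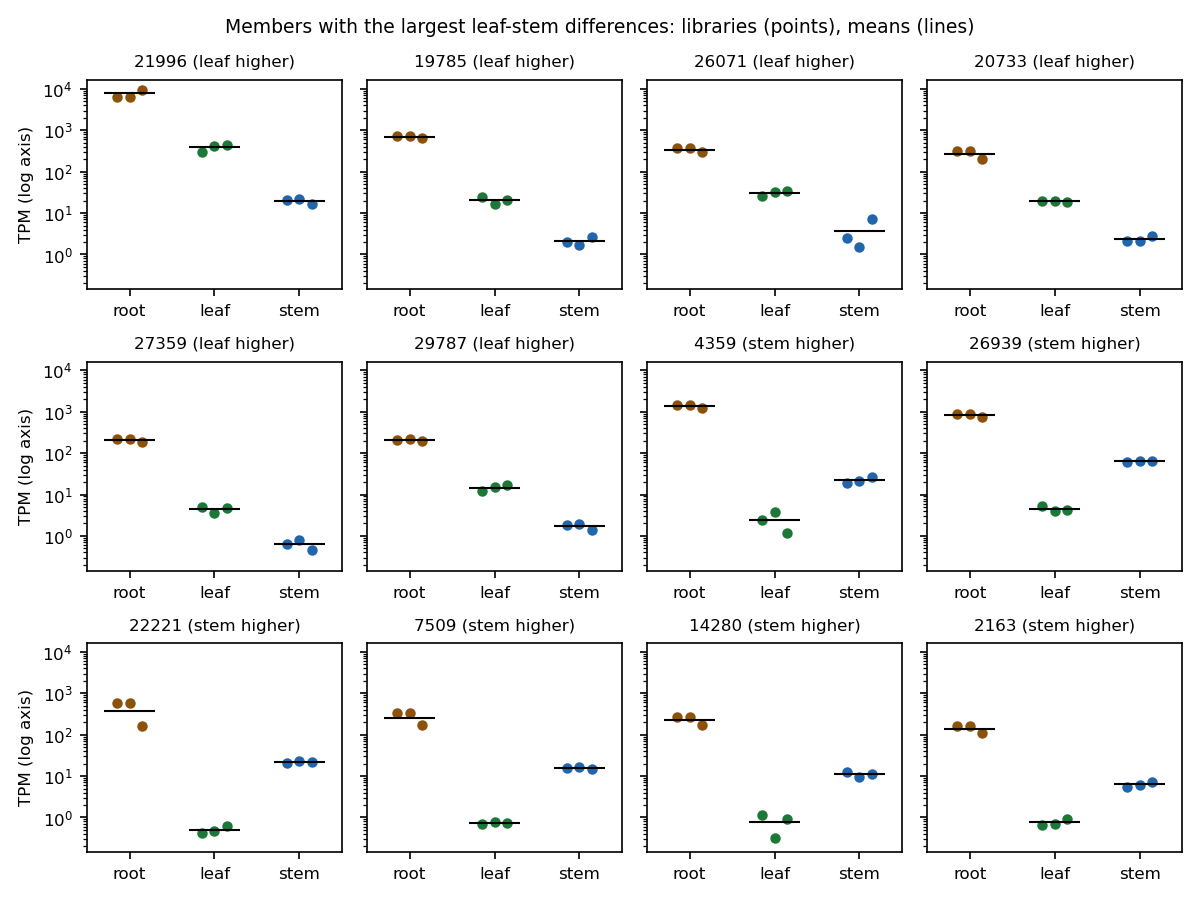
TPM (log axis) in the root, leaf and stem libraries of the 12 transcripts with the largest called leaf and stem differences in each direction; points are libraries and lines are means (root: mean of 2 samples, leaf and stem: n = 3). Leaf and stem points do not overlap in any panel, and the shoot tissue nearer to root is leaf in the first 6 panels and stem in the other 6.

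The 36 transcripts that were not called differed in how many shoot reads they had. At least 1 shoot library under 10 reads was found in 18 of the 36, in 12 of the 27 higher in stem and in 2 of the 10 higher in leaf. The changes nearest 0 belonged to transcripts_16664, at 0.01 ± 0.46, transcripts_22500, at -0.02 ± 1.52, and transcripts_17226, at -0.05 ± 0.97 (leaf minus stem log2 fold change with SE; adjusted p = 1.00 for each, edgeR). transcripts_16664 (302 bases) had 147, 145 and 112 TPM in root, 2.71, 3.65 and 0.970 TPM in leaf and 1.35, 2.06 and 1.32 TPM in stem. transcripts_22500 (463 bases) had 149.5, 149.8 and 113 TPM in root, 2.29, 0 and 0 TPM in leaf and 0.50, 1.18 and 0 TPM in stem. transcripts_17226 (237 bases) had 510.4, 515 and 136 TPM in root, 3.03, 4.46 and 5.11 TPM in leaf and 0, 5.96 and 2.94 TPM in stem. Each of these had under 10 reads in at least 5 of the 6 shoot libraries. They are thus among the 12 that passed the filter only through their root reads. Their adjusted p-values are therefore not read as equality of leaf and stem. The standard errors clearly leave room for differences beyond 2-fold in the last 2 of these. For transcripts_16664, with 2 to 7 reads per shoot library, leaving out 1 library gave -0.31 to 0.39. That range is not an interval for the difference, and a 2-fold difference is not excluded for this transcript either. transcripts_16506 (1899 bases) was not called at -1.10 ± 0.78 (SE, adjusted p = 0.31, edgeR) although its shoot libraries held 51.6, 76.98 and 164 reads in leaf and 217, 34.9 and 361 reads in stem, with stem replicate 2 far below the other stem libraries. Another 7 of the 36 had an adjusted p under 0.05 with a change below 2-fold, among them transcripts_34451 at 0.88 ± 0.17 (SE, adjusted p = 0.0045, edgeR) and transcripts_16934 at 0.81 ± 0.23 (SE, adjusted p = 0.026, edgeR). transcripts_18404 (542 bases) showed how the scale matters: it had 222, 225 and 169 TPM in root, 19.6, 18.2 and 18.3 TPM in leaf and 18.02, 15.5 and 17.7 TPM in stem, leaf being above stem in TPM, while the TMM-scaled change was -0.45 ± 0.13 (SE, adjusted p = 0.03, edgeR) and lay below 0.

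**Figure D4:**
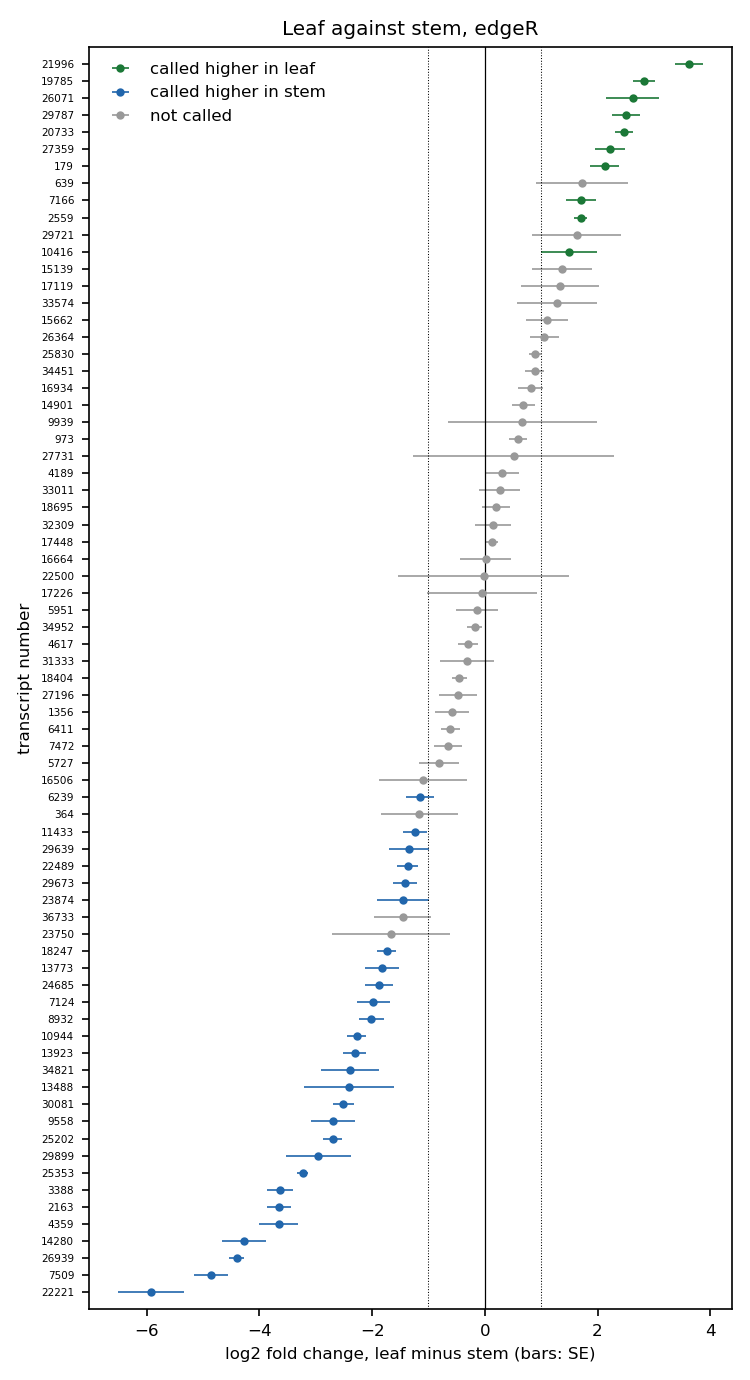
Leaf minus stem log2 fold change (edgeR, TMM scaling) of the 73 transcripts, ordered by value, with SE as bars and dotted lines at a size of 1. Changes run from -5.92 to 3.62, and the longest bar belongs to transcripts_27731, which was not called and was at 0 reads in 3 of the 6 shoot libraries.

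Across the 73, leaf and stem levels were only loosely tied. The Spearman correlation of leaf with stem mean TPM was 0.36 over the 73, against 0.80 over the 19812 transcripts with at least 0.5 TPM in both tissues. That of root with leaf was 0.26 and of root with stem 0.34. These are descriptions across transcripts, which share libraries and scaling, and the limits narrow the range of the members.

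The root samples were compared with each other as a description, since each side is 1 sample. Root replicate 3 was below the mean of root replicates 1 and 2 in 58 of the 73 and above it in 15 (20.5%), against 22.5% of the 1189 transcripts with at least 100 TPM in each root library. The median ratio was 0.767 for the 73 and 0.806 for the 1189. Root replicate 3 was below 0.5 times the other root sample for 8 of the 73 (11.0%), against 2.44% of the 1189, and over 2 times it for 0 of the 73, against 1.09%. Among the 134 transcripts that met the root limits but lay below the shoot floor in leaf or stem, the median ratio was 0.736 and 9 (6.72%) were below 0.5 times. All these sets need 100 TPM in each root library. A transcript under 200 TPM in root replicates 1 and 2 therefore cannot fall below 0.5 times. The median root mean was 345 TPM for the 73, 281 TPM for the 134 and 208 TPM for the 1189. These shares are thus partly set by the limits, and nothing is read from their difference. Root replicates 1 and 2 differed by at most 1.03-fold. The transcripts with the lowest ratios were transcripts_17226 at 0.266, transcripts_22221 at 0.282 and transcripts_31333 at 0.387. transcripts_31333 (542 bases) had 823, 831 and 320.1 TPM in root, 3.92, 2.99 and 2.03 TPM in leaf and 3.86, 1.88 and 2.54 TPM in stem.

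The highest ratios were 1.56 for transcripts_34821, 1.56 for transcripts_17119 and 1.53 for transcripts_21996. transcripts_34821 (208 bases) had 126, 128 and 199 TPM in root, 2.53, 1.88 and 3.22 TPM in leaf and 7.22, 15.8 and 7.44 TPM in stem. transcripts_17119 (220 bases) had 206, 206 and 320.5 TPM in root, 13.3, 17.4 and 33.7 TPM in leaf and 2.68, 2.77 and 11.95 TPM in stem. All 3 are shorter than 300 bases. A 10-fold excess over both shoot means was met by root replicates 1 and 2 alone in 71 of the 73, by root replicate 3 alone in 68, and by each of these samples in 66.

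**Figure D5:**
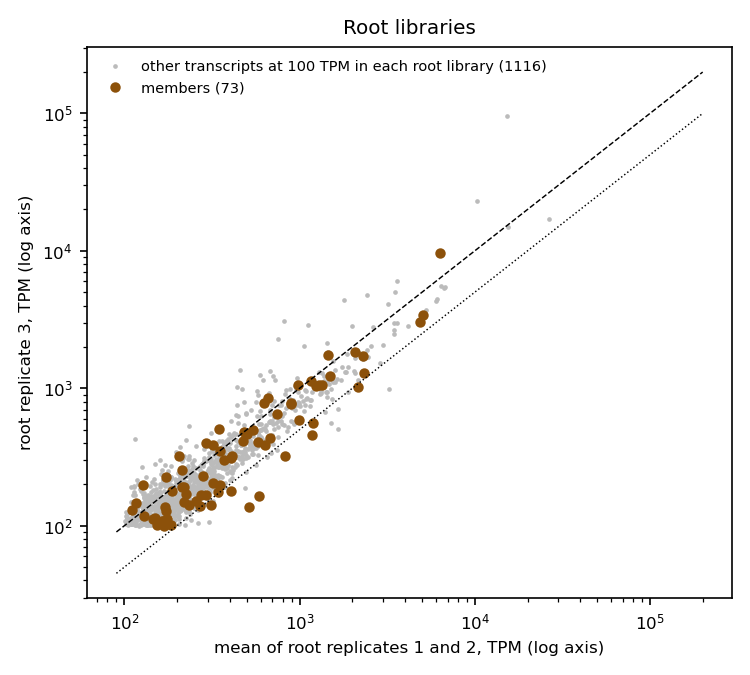
Root replicate 3 against the mean of root replicates 1 and 2 (TPM, log axes) for the 73 transcripts and for the other 1116 with at least 100 TPM in each root library; dashed line equal values, dotted line a ratio of 0.5. Of the 73, 8 lie below the dotted line, and transcripts_21996 is the highest of all 73 in both root samples.

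The 73 were short on average, and this bears on how their levels are read. Their median length was 496 bases (range 206 to 3620), against 774 bases for the 1189 transcripts at 100 TPM in each root library. It was 1112 bases for all tested transcripts, which passed a filter on counts, and 695 bases for all 37051 transcripts. Up to 300 bases were 14 of the 73 (19.2%), against 21.7% of the 1189 and 20.5% of the 37051. Over 2000 bases were 8 of the 73 (11.0%), against 16.3% of the 1189 and 19.3% of the 37051. TPM divides reads by the effective length, Salmon's estimate of the length from which fragments are drawn, and this was much smaller in root libraries for short transcripts. It exceeded the transcript length in at least 1 library for 10 of the 73. For transcripts_26364 it was 20, 20 and 19 bases in root, 54.3, 53.9 and 62.3 bases in leaf and 52.2, 48.8 and 49.5 bases in stem. Among the 14 short transcripts the effective length was a median 2.28 times as long in leaf and 2.22 times as long in stem as in root, and among the other 59 it was 1.16 and 1.14 times as long.

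Read shares, which leave length out, gave smaller excesses for the short transcripts. In CPM (reads scaled to the library total), the median ratio of root to the higher shoot mean was 23.5 for the 14, where TPM gave 44.7, and 31.9 for the 59, where TPM gave 33.4. In CPM the ratio was below 10 for 7 of the 73, of which 4 have up to 300 bases, and the lowest ratio was 6.47, for transcripts_34821. That transcript had 31.00, 31.00 and 48.99 reads in the root libraries, and 7 of the 73 had under 100 reads in at least 1 root library, while 40 had at least 1000 in each. The first in root TPM, transcripts_21996, had 3842, 3717 and 5309 reads in root, 599.9, 795 and 827 reads in leaf and 58.1, 62.6 and 51.1 reads in stem. Its root mean was 20.7 times its leaf mean in TPM and 11.1 times in CPM. In CPM it averaged 609 in root, which ranked it 14 among the 73, and the first was transcripts_2559 (2829 bases) at 4192.

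The 134 transcripts that met the root limits below the shoot floor are the set most like the 73 in how they were chosen. In replicates 1, 2 and 3, these 134 held 14.4%, 14.4% and 12.6% of root TPM, more than the shares of the 73 given above. The median root mean was 345 TPM for the 73, against 281 TPM for the 134, and the median length was 496 bases, against 695 bases. In root libraries, 83.1% of the estimated counts of the 73 were not whole (by more than 0.001). This share was 72.9% for the 134, 70.3% for the 1189 at 100 TPM in each root library and 62.8% for all tested transcripts. A count that is not whole means that some reads also match another transcript and were divided, so levels of near-identical transcripts are uncertain. Counts were whole in all 9 libraries for 6 of the 73 (8.22%), against 6.73% of the 1189, 20.1% of the 134 and 18.2% of all tested transcripts. The running numbers of the 73 were spread from 179 to 36733, and no 2 of them were consecutive.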

How the data were processed

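Reads were handled by the authors with the tools fastp (0.23.2) and Salmon (version 1.10.0), per the submitters' processing notes. Which transcript reference and which options they used is not given in the sources used here. The deposited tables hold TPM and estimated counts per transcript, per the file headers. Length and effective length are per the file headers too, in bases, and are not a read signal. All 9 tables list the same transcripts.

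The 73 transcripts were found by applying the limits to TPM. They and the tests were chosen with earlier results of these data known. Root replicates 1 and 2 were averaged, giving 8 samples. Rounded estimated counts entered edgeR (version 4.0.16, under R 4.3.3), with filterByExpr on tissue (24564 transcripts kept), TMM scaling, the robust quasi-likelihood test and Benjamini-Hochberg adjustment over all tested transcripts. The SE was taken as the fold change over the root of its F statistic. Alternatives used DESeq2 1.42.0, limma 3.58.1, other scalings, filters and libraries. Transcripts named were, among the 73, the 8 highest in root, 6 with the largest called leaf-stem difference in each direction, 4 highest in shoot, 4 with the highest root-to-shoot ratio, 3 with a leaf-stem change nearest 0, 3 highest and 3 lowest for root replicate 3, and those next to each limit; others were named after their values were seen. Lists of marker genes could not be matched, since no transcript has a gene name.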

Additional observations from a re-analysis of the deposited data

How the results depend on the processing

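Calls for the 73 changed mainly with scaling. Members called higher in leaf numbered 10 in the model as fitted, 18 with library totals alone, 20 with limma on log2(TPM + 1) and 19 with limma on log2(TPM + 0.1), and over all transcripts tested 3573, 6305, 5798 and 6380. Members called higher in stem numbered 27, 20, 20 and 20, and over all transcripts 2335 under limma on log2(TPM + 1), against 3542. By construction, TMM was absent from these 3 settings. The share of called members that were higher in leaf was 27.0%, 47.4%, 50% and 48.7%, and of all called transcripts 50.2%, 71.9%, 71.3% and 71.8%. Under every other setting run, both counts of members stayed within 1.5 times. With 1 library other than root replicate 3 left out at a time, 9 to 11 members were higher in leaf and 24 to 27 in stem. Over all tested transcripts these counts were 2957 to 3573 and 3264 to 3541. Of 37 called members, 28 kept their call in every setting in which they were tested (9 of 10 higher in leaf, 19 of 27 higher in stem); without a fold threshold 15 and 29 were called, against 18.4% and 20.9% of all tested transcripts. transcripts_13488 lost its call in 12 settings, transcripts_23874 in 9, and transcripts_29639 and transcripts_10416 in 7 each; with leaf and stem libraries only, 12 of the 73 did not pass the filter. With a replicate block the counts were 10 and 24 on leaf and stem libraries (17.5% and 17.2% of all tested transcripts), and 12 and 27 on all 9 (15% and 14.6%). Leaf and stem libraries of the same number had deviations that correlated at -0.034, 0.0095 and 0.011. Those of different numbers correlated at -0.052 to 0.041. These values do not tell whether libraries of the same number came from the same plant.

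Among uncalled transcripts the sign of small changes moved. With library totals alone transcripts_5951 stood at 0.41, transcripts_31333 at 0.22, transcripts_17226 at 0.47, transcripts_18404 at 0.098 and transcripts_22500 at 0.50. With limma on log2(TPM + 1) they stood at 0.24, 0.088, 0.76, 0.13 and 0.0043, and with a pseudocount of 0.1 the first 4 at 0.27, 0.12, 1.78 and 0.13. With effective-length offsets transcripts_22500 stood at 0.11, and with the replicate block on 9 libraries transcripts_17226 stood at 0.098 and transcripts_16664 at -0.023. Leaving out a library gave -0.41 to 0.22 for transcripts_5951, -0.57 to 0.018 for transcripts_31333, -0.60 to 0.92 for transcripts_17226, -5.02 to 1.03 for transcripts_22500 and -0.31 to 0.39 for transcripts_16664.

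The number of transcripts meeting the limits was 114 at 50 TPM and 41 at 200 TPM in each root library, and 144 at a ratio of 5. Leaving out each library gave 72 to 93, the highest without root replicate 3, when 71 of the 73 remained. With CPM for TPM, 84 met the limits, of which 40 are among the 73. Depth limits the leaf and stem values of transcripts with under 10 reads in a library.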

Other observations

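For some of the 73, libraries of a shoot tissue differed far more than those of root, and 2 examples were picked after their values were seen. The limits exclude any root library under 100 TPM, and root replicates 1 and 2 count as 1 sample. Evenness in root is therefore partly set by the choice of transcripts, and nothing is read from the contrast with the shoot. transcripts_27731 (1013 bases) had 169, 173 and 136 TPM in the root libraries, 0, 8.96 and 12.7 TPM in leaf and 9.53, 0 and 0 TPM in stem. It had 0, 150.7 and 207.6 estimated reads in the leaf libraries and 234.6, 0 and 0 in the stem libraries. The counts above 0 were not whole, so some reads were divided with another transcript. Whether the values of 0 come from that division was not tested. transcripts_9939 (321 bases) had 128, 130.1 and 118 TPM in root, 0.490, 4.39 and 0.522 TPM in leaf and 0, 0 and 2.26 TPM in stem, from at most 8 reads in a shoot library.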
